A study of Mus musculus with 4 samples.

Results

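The genes described here are 10 genes of the circadian clock, namely Dbp, Tef, Hlf, Per1, Per2, Per3, Cry1, Nr1d1, Nr1d2 and Clock, in a culture of mouse bone marrow that forms osteoclasts, the large cells with many nuclei that break down bone. They were taken by gene symbol from the 18193 genes that the array's annotation names by 1 symbol, and 25 probe sets of the 45101 on the array carry these symbols. They were chosen with the levels on these arrays known, in particular a dip of Dbp on day 5, so every value below is a description. The donors of the marrow were female C57Bl/6J mice, 12 weeks old, and each of 4 days is represented by 1 array. The day 1 array holds RNA of cells at the day of extraction, and the day 4 array RNA of cells kept for 3 days with 10 nM vitamin D3 in medium with 10% serum. The arrays of days 5 and 7 hold RNA of cells that were then given 20 ng/ml M-CSF, which macrophages and their precursors need to grow, and 40 ng/ml RANKL, the signal to become an osteoclast, with vitamin D3 still present. For days 5 and 7 the stated times of differentiation are 4 and 6 days, taken here to count from extraction. No array of days 5 or 7 lacked the cytokines, it is not stated whether 1 culture gave all samples, and no hour of harvest is given. Cytokines, stage of culture and time of day therefore cannot be told apart where day 5 or 7 is set against an earlier day. Days 5 and 7 had the same cytokine doses, so between them this holds for length of exposure, stage and time of day. Between days 1 and 4 it holds for vitamin D3, culture and time of day. With 1 array a day there are no replicates, no test and no p-value.

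The clock of mammalian cells is a feedback loop of transcription. CLOCK pairs with BMAL1, the product of Arntl, and the pair binds E-boxes to switch on the Per, Cry and Nr1d genes and Dbp. PER and CRY proteins then repress that pair, while the nuclear receptors encoded by Nr1d1 and Nr1d2 (REV-ERB alpha and beta) repress Arntl, Npas2 and Nfil3. DBP, TEF and HLF are the PAR bZIP factors, which activate genes through D-boxes, and NFIL3 represses through the same element. Transcripts of the E-box genes and of Arntl peak at opposite times of day in most tissues, with Dbp among the genes of widest swing. Such rhythms run in bone cells and macrophages too.

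The values are array signals on a linear scale, and those under a floor of 32.4 signal units, the median of all values, were set to the floor before log2 differences were taken. A gene is called higher or lower here at 2-fold, which is a threshold of size. Where a gene has several probe sets, the one with the highest mean log2 signal stands for it. Of the 10 genes, 7 were above the floor on all 4 arrays and 9 on at least 1. Nr1d1 has 1 probe set, with signals of 6.72, 10.5, 8.75 and 13.4 on days 1, 4, 5 and 7, so no level or difference can be given for it. Of the 25 probe sets, 11 were above the floor on every array and 18 on at least 1. As measures of technical precision, probe sets of the same gene had a pooled SD of their log2 differences of between 0.26 (day 7 over day 5) and 0.53 (day 7 over day 1), and 18 spiked controls an SD of between 0.07 and 0.17. Neither measures the spread between cultures.

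**Figure D1:**
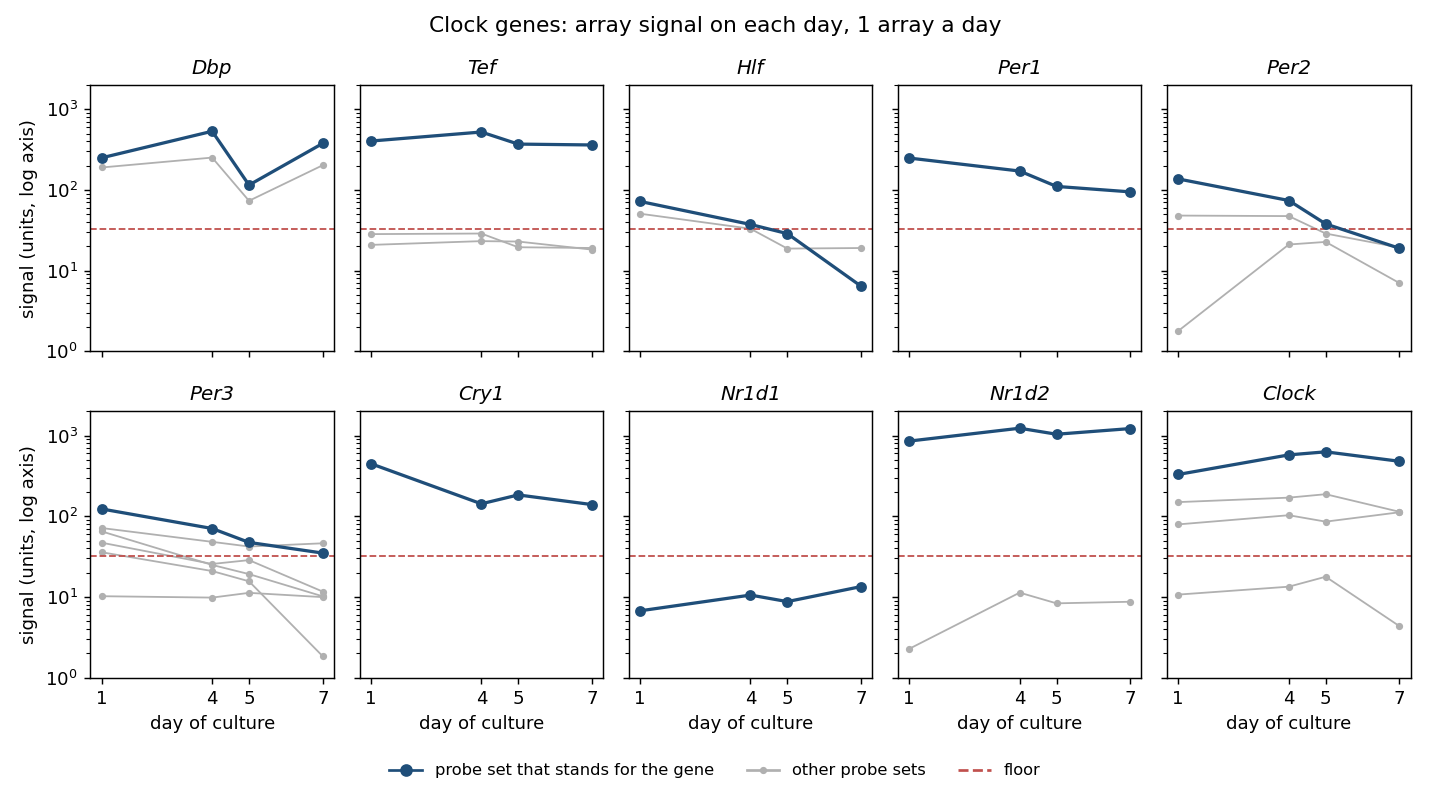
Array signal (units, log axis) of each clock gene against the day of culture, with 1 array a day. Dark lines are the probe set that stands for the gene, grey lines its other probe sets and the dashed line the floor of 32.4 units. Both probe sets of Dbp are lowest on day 5, those of the Per genes that stand for the gene are lowest on day 7, and that of Nr1d1 lies under the floor on every array.

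The makeup of the cells differed widely between the arrays, which bears on every difference below: fewer cells of a type and less RNA per cell cannot be told apart in such bulk RNA. The summed signal of 11 osteoclast markers was 9690, 29070, 47548 and 55971 on days 1, 4, 5 and 7. Of the markers that define the cell type on the label, Dcstamp, Ocstamp, Oscar and Calcr were under the floor on day 1, and Calcr also on day 4. The summed signal of 7 neutrophil markers was 80616, 49226, 28392 and 4120, that of 9 stromal markers 1921, 26921, 35664 and 24611, and that of 8 markers of haematopoietic progenitors 5622, 1439, 1152 and 529. The 7 megakaryocyte markers summed to 16836, 21464, 14966 and 8344, highest on day 4. The 6 macrophage markers summed to 32824, 50964, 47489 and 51757. Red cell markers summed to 15194 on day 1 and to between 86.5 and 150 later. Their part in the levels of the clock genes was not tested.

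Dbp, the PAR bZIP gene with the most strongly rhythmic transcript in many tissues, was the only one of the 10 genes to differ by 2-fold between both pairs of neighbouring days after day 1. Its main probe set had signals of 250, 533, 115 and 377 on days 1, 4, 5 and 7. A second probe set had 190, 252, 73.3 and 202. On both the day 5 array was the lowest and the day 4 array the highest. Day 5 was 4.64-fold lower than day 4 on the main probe set, a log2 difference of -2.21, and 3.43-fold lower on the second, -1.78. Day 7 was then 3.28-fold higher than day 5 (1.72 on the log2 scale), and 2.76-fold higher on the second probe set (1.47). Day 7 lay between days 1 and 4 on both probe sets, at -0.50 against day 4 and 0.60 against day 1 on the main one. The difference of day 4 over day 1 depends on the probe set, at 1.09 on the main one and 0.41 on the second. At the step where Dbp was lower, day 5 over day 4, 6 of 7 megakaryocyte markers (median -2.05) and 5 of 7 neutrophil markers (median -1.58) were lower by 2-fold too. On day 7 over day 5, where Dbp was higher, 6 of 7 markers of each list were lower (medians -2.06 and -2.58). Among all measured genes, 4.04% were lower at the first of these steps and 5.84% at the second. Some lists ran otherwise. All 8 measured stromal markers were above 0 at the first step, and 4 were lower by 2-fold at the second. Of 11 osteoclast markers, 4 and then 2 were higher by 2-fold and none was lower. Of 6 macrophage markers, 4 were below 0 at the first step (median -0.07) and 4 above 0 at the second (median 0.09). None of the 6 passed 2-fold at either step. The part of these lists in the signal of Dbp was not tested.

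A dip of this kind was rare on these arrays. Of 11994 genes above the floor on day 4, 5 or 7, 12 had a day 5 level under both other days by 2-fold or more, or 0.1%. Ranked by the smaller of the steps down and up, Dbp stood at place 2. This ranking uses the same values that Dbp was chosen for. By any amount, day 5 was below both other days for 2 of the clock genes, Dbp and Nr1d2, against 15.0% of all genes. After quantile normalization it was so for 4, with Tef and Per1 beside them. No share of all genes is given for that scaling, so the 4 cannot be set against the 15.0%. The scaling also moved the median log2 difference of day 7 over day 5 from -0.11 to 0.03. This median is over genes whose signals on the 2 days both passed the floor.

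The 5 other genes with the profile nearest to that of Dbp were found among the 10034 genes above the floor on all 4 arrays, by the root mean square distance of log2 signals centred on the mean of each gene. Clec10a, a lectin gene of macrophages and dendritic cells, was nearest, at a distance of 0.21, with signals of 716, 1640, 271 and 1326 on days 1, 4, 5 and 7. The sialyltransferase gene St6gal1 (distance 0.31) had 962, 1457, 566 and 1249. The lysosomal transporter gene Slc46a3 (0.33) had 329, 755, 167 and 310. All of these were lowest on day 5 and highest on day 4. The calcium channel gene Trpv4 (0.37) had 135, 199, 72.2 and 126. Lpin1 (0.38), which encodes a phosphatidate phosphatase, had 287, 365, 143 and 282. None of these 5 is a clock gene, and with 4 arrays a small distance says only that the 4 levels ran alike.

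**Figure D2:**
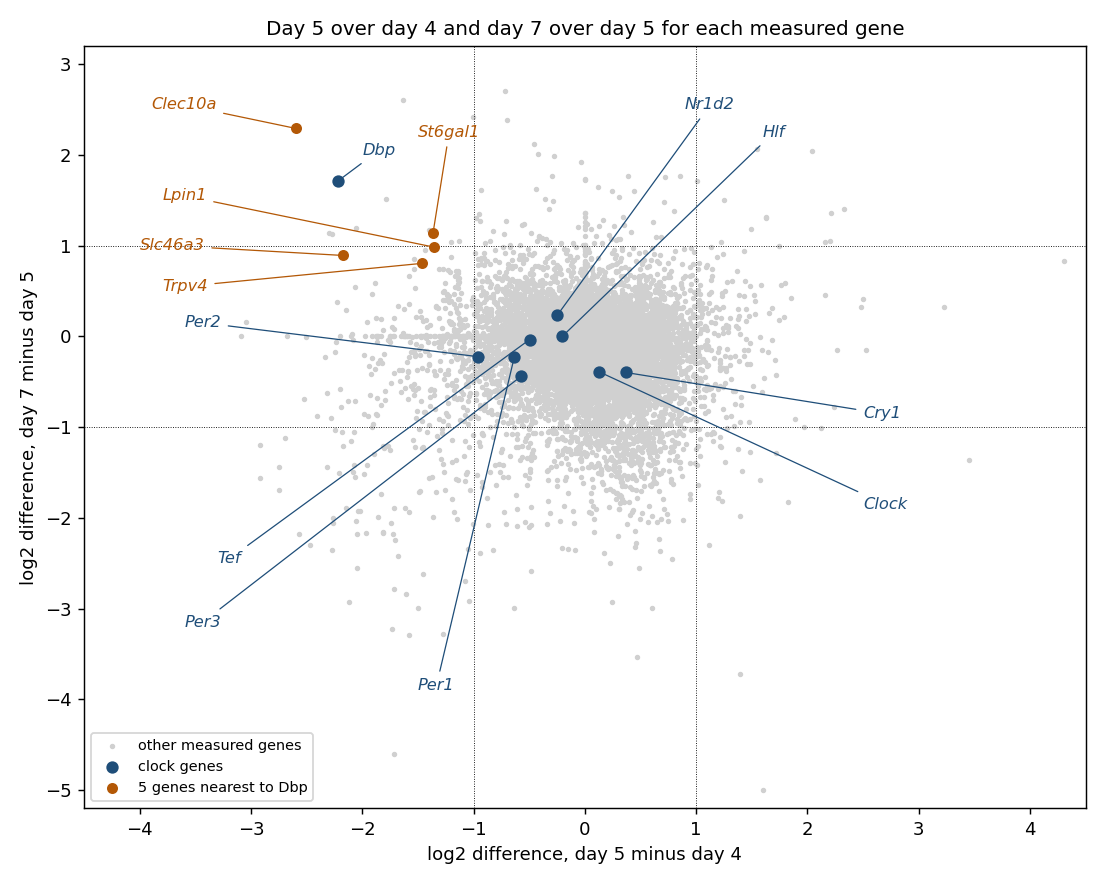
Log2 difference of day 5 minus day 4 (horizontal) against day 7 minus day 5 (vertical) for each of 11994 genes above the floor on at least 1 of these arrays; dotted lines mark 2-fold. Dbp lies at -2.21 and 1.72, beside Clec10a at -2.60 and 2.29, while the 8 other clock genes plotted lie within 2-fold of 0 on both axes; Nr1d1, under the floor throughout, is not plotted.

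The relatives of Dbp did not show a dip of that size. Tef, whose product binds the same D-boxes, had signals of 403, 522, 370 and 361 on days 1, 4, 5 and 7. Its levels on days 5 and 7 were nearly equal, at -0.04 on the log2 scale for day 7 over day 5, a sign that turned with scaling (0.15 after quantile normalization and 0.14 after scaling to the same median). Day 5 over day 4 was -0.50 for Tef, under the 2-fold line. The remaining 2 probe sets of Tef were under the floor throughout, with signals between 18.2 and 28.8.

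Hlf, the other relative, is also known as a gene of haematopoietic stem cells. It was near the floor, with 72.0 and 37.3 on days 1 and 4 and with 28.7 and 6.40, both under the floor, on days 5 and 7. A second probe set gave 50.7, 33.0, 18.7 and 19.0. Hlf was thus highest on day 1 on both probe sets. Day 7 was at least 2.22-fold lower than day 1 on the first probe set and at least 1.56-fold lower on the second. Of 8 progenitor markers, the number above the floor was 7, 7, 5 and 1 on days 1, 4, 5 and 7. Of 5 B cell markers it was 5, 4, 2 and 1, and of 11 osteoclast markers 7, 10, 11 and 11. Of all probe sets, 52.6%, 50.9%, 49.9% and 46.6% were above the floor. A run down was thus not particular to the progenitor markers, and their part in the signal of Hlf was not tested.

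The 3 Period genes, the negative arm of the loop, were highest on day 1 and lower on each later array. Per1, whose transcript also answers quickly to hormones and cAMP, had signals of 248, 171, 110 and 94.6 on days 1, 4, 5 and 7. Per2 had 137, 73.9 and 37.9 on days 1, 4 and 5, and 18.9, under the floor, on day 7. Per3, the member that is dispensable for rhythms in mice, had 123, 70.4, 47.4 and 34.9. Day 7 was 2.63-fold lower than day 1 for Per1 (-1.39 on the log2 scale), at least 4.22-fold lower for Per2 and 3.53-fold lower for Per3 (-1.82). With signals under the floor set to it, a level lower at every step was seen for these 3 of the 9 measured clock genes and for 13.9% of the 12438 genes above the floor on at least 1 array. The signals of the first probe set of Hlf before the floor was set were lower at every step too, but its days 5 and 7 lay under the floor. The second probe set of Hlf had 18.7 on day 5 and 19.0 on day 7, also under the floor. After quantile normalization Per1 was at 0.07 for day 7 over day 5, against -0.22 as deposited, so the last step of Per1 depends on the scaling.

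Other probe sets of Per2 and Per3 give other differences. A second of Per2 had 48.1, 47.4, 28.8 and 19.3, with the last 2 under the floor, so that its day 4 over day 1 was -0.02 against -0.89 on the main one. A second of Per3 had 71.4, 48.1, 42.1 and 46.2, with a day 7 over day 5 of 0.13, opposite in sign to the -0.44 of the main one. A further 3 probe sets of Per3 were above the floor on day 1 alone, at 64.9, 47.0 and 35.8. On the first of these, day 4 was at least 2.00-fold lower than day 1, against 1.75-fold lower on the main probe set. On all 5 probe sets of Per3 with a level above the floor, day 1 was highest. The last of Per2 and the last of Per3 were under the floor on every array.

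Cry1, which encodes the main repressor of CLOCK and BMAL1 beside the PER proteins, differed at 1 step only. Its probe set had signals of 449, 143, 184 and 139 on days 1, 4, 5 and 7. Day 4 was 3.15-fold lower than day 1, a log2 difference of -1.66, and the 3 later arrays lay between 139 and 184. Day 7 over day 4 was -0.03, a sign that turned with scaling (0.27 with quantile normalization and 0.13 with equal medians).

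The levels of Per1 and Per3 ran most alike of any pair of the 7 clock genes above the floor on all arrays, with a root mean square distance of 0.15. Tef and Nr1d2 followed at 0.26, and Nr1d2 and Clock also at 0.26. Dbp had no close partner among them: its nearest was Tef at 0.71, and Cry1 was the farthest at 1.23.

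Nr1d2, which encodes REV-ERB beta, was above the floor throughout with a narrow range. It had signals of 853, 1232, 1038 and 1220 on days 1, 4, 5 and 7. Day 5 was 1.19-fold lower than day 4 and day 7 was 1.18-fold higher than day 5, so its dip had the shape of that of Dbp but not its size, and both steps were smaller than the SD between probe sets of a gene (0.29 and 0.26). A second probe set was under the floor on all arrays, as was the only one of Nr1d1, the close paralogue that encodes REV-ERB alpha.

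Clock, the gene of the positive arm, had signals of 329, 576, 628 and 480 on days 1, 4, 5 and 7. A second probe set had 150, 170, 187 and 113, and another 79.2, 103, 85.7 and 112. The first 2 were highest on day 5 and the last on day 7. Day 7 over day 1 was 0.54, -0.40 and 0.50 on the 3 probe sets, so no direction can be given over the whole culture. None of these differences reached 2-fold on any of the 3.

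Taken by comparison, few of the clock genes passed 2-fold between neighbouring days. On day 4 over day 1, 1 of the 9 measured genes was higher (Dbp) and 1 was lower (Cry1), where 10.0% of all measured genes were higher and 8.65% lower. The median log2 difference of the 9 was -0.54, against 0.06 over all 11981 measured genes. On day 5 over day 4 none was higher and 1 was lower (Dbp), with 2.02% of all genes higher and 4.04% lower. The median was -0.50, against 0.06. On day 7 over day 5, 1 of 8 measured genes was higher (Dbp), where 0.853% of all genes were, and none was lower, where 5.84% were. The all-gene shares depend on scaling at this step, at 1.65% higher and 3.54% lower after quantile normalization and 1.57% and 4.22% after scaling to the same median. The median of the 8 was -0.22, against -0.11.

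Over the longer spans, none of the 9 was higher by 2-fold on day 7 than on day 4 and 2 were lower, Per2 at least 2.28-fold and Per3 2.02-fold. Of all measured genes 3.12% were higher and 9.12% lower, or 4.77% and 6.11% after quantile normalization and 4.65% and 6.99% after scaling to the same median. Per3 was under 2-fold after either scaling, at -0.56 and -0.85. Against day 1, the day 7 array had 5 of the 9 lower by 2-fold (Hlf, Per1, Per2, Per3 and Cry1) and none was higher. This stands beside 16.2% of all measured genes lower and 12.7% higher, or 12.8% and 16.5% after quantile normalization. The count of lower clock genes was 4 after quantile normalization, with Hlf at -0.92, and 2 (Per1 and Cry1) with the floor at the 60th percentile of all values or with the mean over probe sets. The median of the 9 was -1.15, a bound since Hlf and Per2 were under the floor on day 7, against 0.01 over all 11967 measured genes. The comparisons share arrays, so their counts are not independent. Over the same days the summed signal of the 7 neutrophil markers was 4120 on day 7, against 80616 on day 1, and that of the 5 B cell markers was 126, against 4200. Of the 7 megakaryocyte markers 6 were lower by 2-fold at this span, with a median of -3.91. Their part in the lower signals of the clock genes was not tested.

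**Figure D3:**
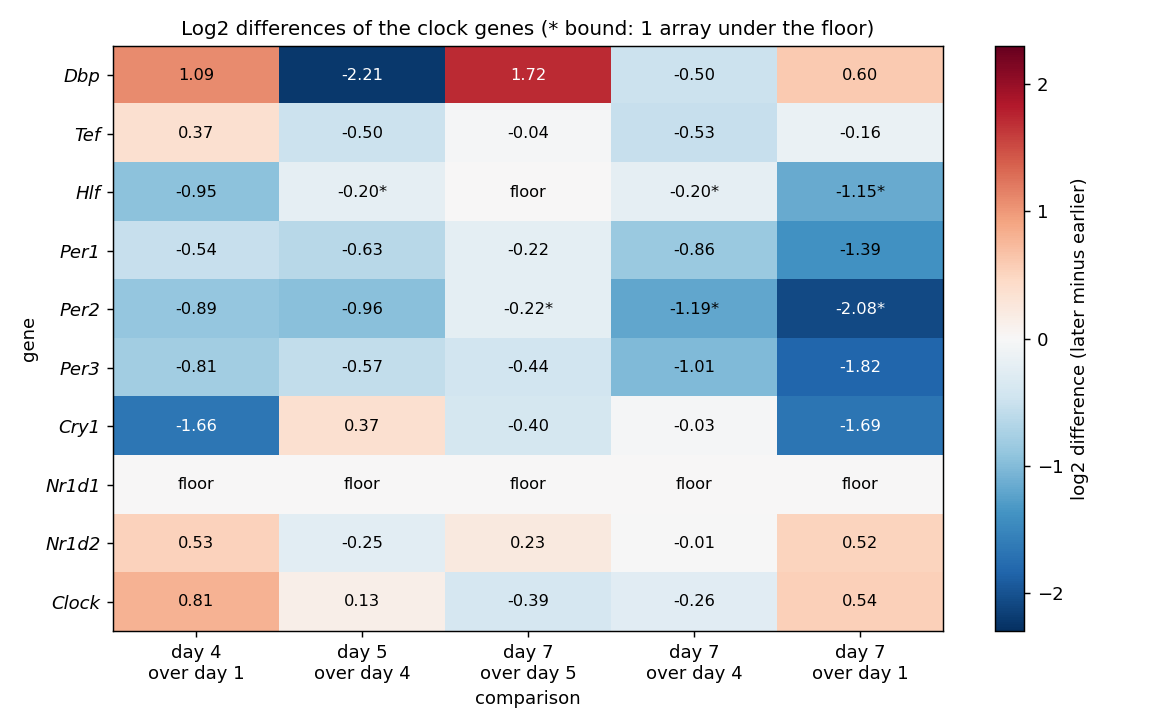
Log2 difference (later minus earlier day) of each clock gene in 5 comparisons, by colour and number. An asterisk marks a bound, with 1 of the 2 arrays under the floor, and the word floor marks both under it. Dbp alone passes 2-fold on days 5 over 4 and 7 over 5, and 5 genes lie below -1 for day 7 over day 1.

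Of 10 further genes of the core loop with a probe set named for them, 8 were above the floor on day 1 or day 4. Arntl, which encodes BMAL1, the partner of CLOCK, had signals of 569, 231, 138 and 150 on days 1, 4, 5 and 7. Nfil3, the repressor at D-boxes, had 525, 306, 218 and 119. Day 7 was 3.79-fold lower than day 1 for Arntl and 4.41-fold lower for Nfil3. A second probe set of Arntl had 91.7 and 49.5 on days 1 and 4 and was under the floor after that, so it too was highest on day 1.

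Npas2, which encodes a stand-in for CLOCK, was above the floor on day 4 alone, at 71.0, and its second probe set was under the floor on all arrays. Cry2, the second cryptochrome gene, had signals of 53.6, 56.2, 51.6 and 68.0. Rora, which encodes the activator that competes with REV-ERB, had 64.7, 113, 82.9 and 67.8, and Bhlhe40, a repressor at E-boxes, 826, 831, 1070 and 839. Ciart, a further repressor of the loop, stayed between 37.7 and 42.4. None of these 4 differed by 2-fold in any comparison on the probe set that stands for the gene; another probe set of Rora was at -1.03 for day 7 over day 4. Arntl2 was above the floor on day 1 alone, at 33.2, and Rorb and Bhlhe41 on no array. Past 2-fold were 1 higher (Npas2) and 1 lower (Arntl) of 8 measured genes of this list on day 4 over day 1, and 1 lower (Npas2) of 7 for day 5 over day 4. For day 7 over day 5 it was 0 of 6. Against days 4 and 1, day 7 had 2 of 7 lower each time, with Npas2 and Nfil3 in the first case and Arntl and Nfil3 in the second. Of all measured genes 10.0% were higher and 8.65% lower on day 4 over day 1, and 4.04% were lower on day 5 over day 4. Those lower on day 7 were 9.12% against day 4 and 16.2% against day 1.

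**Figure D4:**
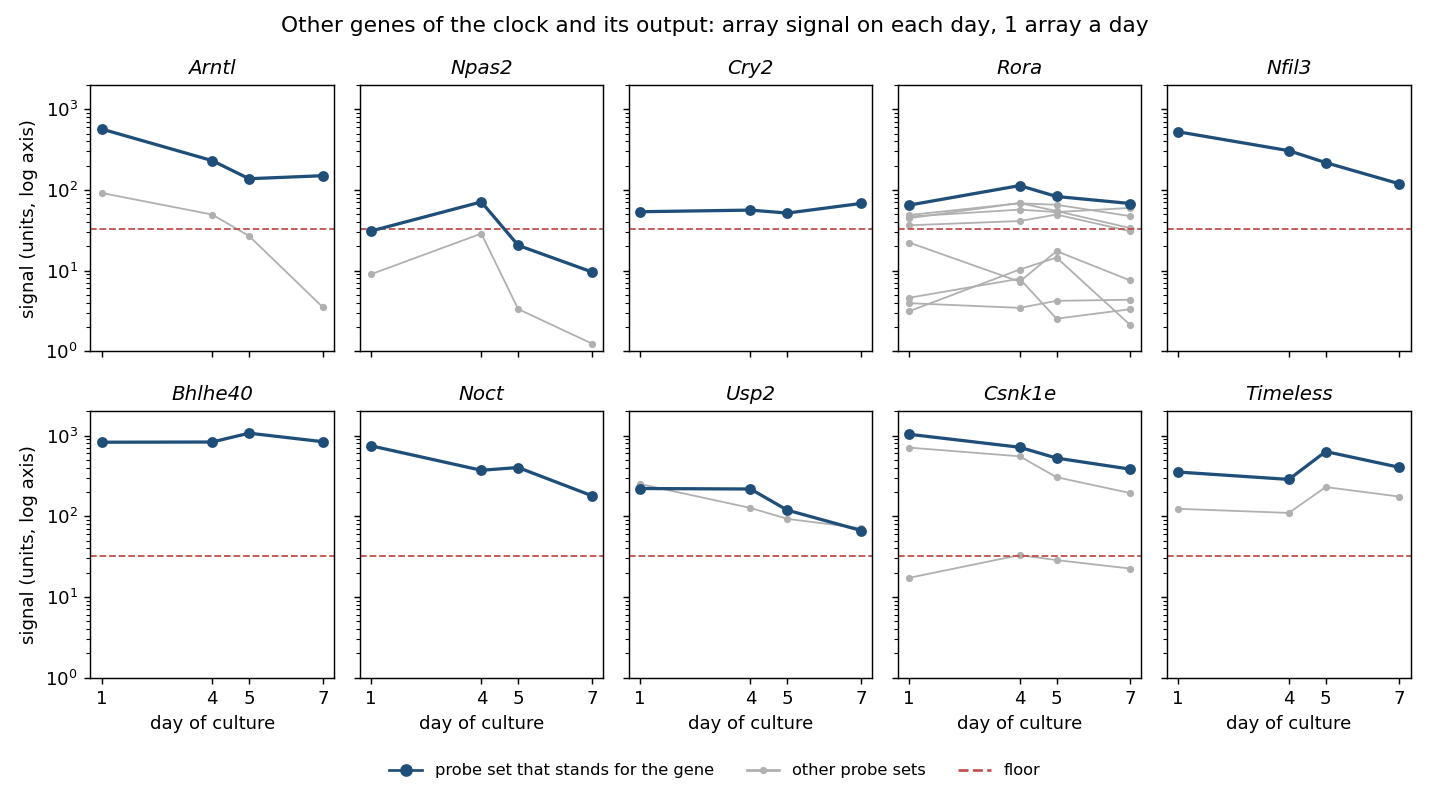
Array signal (units, log axis) against the day of culture for 10 further genes of the clock and its output, drawn as for the clock genes above, with the floor dashed. Arntl, Nfil3, Noct, Usp2 and Csnk1e are highest on day 1 on the probe set that stands for the gene. Npas2 is above the floor on day 4 alone, and Timeless is highest on day 5.

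A further 9 genes encode kinases and ligases that tune the stability of PER and CRY proteins, or, for Timeless, a protein tied to the loop. Of these 9, Csnk1e and Timeless alone passed 2-fold in any comparison. Csnk1e, which encodes casein kinase 1 epsilon, had signals of 1037, 716, 525 and 383, and its day 7 level was 2.71-fold lower than that of day 1. A second probe set had 709, 553, 304 and 194. Timeless, which also serves at replication forks, had 353, 286, 633 and 403, and its day 5 level was 2.22-fold higher than that of day 4. Among all measured genes, 16.2% were lower on day 7 over day 1 and 2.02% higher on day 5 over day 4. Csnk1d, of the related kinase casein kinase 1 delta, lay between 2169 and 2290.

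Genes that the clock is known to drive in other tissues differed among themselves. Noct, which encodes nocturnin, had signals of 747, 371, 401 and 179 on days 1, 4, 5 and 7, and Usp2, of a ubiquitin protease, 220, 217, 119 and 66.5. Day 7 was 4.17-fold lower than day 1 for Noct and 3.31-fold lower for Usp2. Wee1, a brake on mitosis, had 382, 346, 529 and 507, and Cdkn1a, of the cell cycle inhibitor p21, 566, 1012, 1585 and 1781. Cdkn1a was the only one of the 6 measured output genes higher on day 7 than on day 1 by 2-fold, at 3.15-fold, and 2 were lower. None of the 6 passed 2-fold on day 5 over day 4, where Dbp was lowest. Among all measured genes, 12.7% were higher and 16.2% lower on day 7 over day 1. For day 5 over day 4 these shares were 2.02% and 4.04%.

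Per1 is also a target of the glucocorticoid receptor and of the signals that switch on immediate early genes. Of 7 genes of the glucocorticoid response, 4 were lower by 2-fold for day 7 over day 1 and none was higher, among them Dusp1 at 3.38-fold and Sgk1 at 2.44-fold. On day 5 over day 4 none of the 6 measured passed 2-fold. Their median at that step was 0.07, and on day 7 over day 5 it was -0.67, with 1 of the 6 above 0. Of 9 measured immediate early genes, 5 were lower by 2-fold for day 7 over day 1 and none was higher. Nr4a1 was at 13.6-fold, Egr1 at 2.75-fold and Ier2 at 2.73-fold. Dusp1 belongs to both lists and is counted in each, so the lists are not independent. Of all measured genes, 16.2% were lower and 12.7% higher at this span, or 12.8% and 16.5% after quantile normalization. The medians of these lists were -1.02 and -1.15 on day 7 over day 1, against 0.01 over all measured genes. Step by step, the immediate early median was 0.24 from day 1 to day 4, 0.01 to day 5 and -0.66 to day 7. Of the 9 genes, 5, 5 and 1 were above 0 at these steps, and 3, 2 and 2 were lower by 2-fold. Per1 was at -0.54, -0.63 and -0.22, so its 2 larger steps down were not those of this median. The part of both lists in the lower signal of Per1, at -1.39 over the whole culture, was not tested.

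The DNA before the start sites of the clock genes is shown for Dbp, which stood apart, and for Per1, Per3 and Cry1. Per1, Per3 and Cry1 were all past 2-fold lower at the end of the culture than at its start. So was Hlf, whose window was searched but is not shown. The 250 bases before the start come from RefSeq (GRCm38.p6), where 9 of the 10 genes were found, with 13 windows. Per2 was not among them. The windows were searched on both strands for the E-box CACGTG, its variant CACGTT, the D-boxes TTATGTAA and TTACGTAA, the ROR element TAGGTCA and the cAMP response element TGACGTCA. The bases of a match stand in capitals, 5′ to 3′ on the strand of the gene.
Dbp, chr7:45704997-45705246, plus strand: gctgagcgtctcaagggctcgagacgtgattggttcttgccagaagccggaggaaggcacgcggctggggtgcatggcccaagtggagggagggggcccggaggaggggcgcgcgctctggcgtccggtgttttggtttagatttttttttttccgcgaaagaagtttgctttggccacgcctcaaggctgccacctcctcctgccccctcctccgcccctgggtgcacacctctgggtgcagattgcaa
Per1, first start site, chr11:69098699-69098948, plus strand: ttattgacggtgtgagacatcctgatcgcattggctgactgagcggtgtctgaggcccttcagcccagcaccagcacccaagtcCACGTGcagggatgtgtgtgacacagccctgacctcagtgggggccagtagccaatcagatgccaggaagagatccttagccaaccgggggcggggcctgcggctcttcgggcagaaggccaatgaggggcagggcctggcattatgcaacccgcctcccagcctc
Per3, chr4:151044666-151044915, minus strand: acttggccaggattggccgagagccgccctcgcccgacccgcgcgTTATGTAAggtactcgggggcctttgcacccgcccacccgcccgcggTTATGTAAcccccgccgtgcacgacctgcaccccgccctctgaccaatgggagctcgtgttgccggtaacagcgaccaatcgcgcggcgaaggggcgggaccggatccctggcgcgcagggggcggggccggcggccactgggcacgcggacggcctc
Cry1, chr10:85185055-85185304, minus strand: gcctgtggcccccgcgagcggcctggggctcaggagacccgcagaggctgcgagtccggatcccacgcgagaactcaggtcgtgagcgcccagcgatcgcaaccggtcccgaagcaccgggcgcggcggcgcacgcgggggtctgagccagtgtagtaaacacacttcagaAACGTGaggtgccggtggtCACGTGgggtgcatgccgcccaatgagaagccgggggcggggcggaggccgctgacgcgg

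Per3 holds TTATGTAA at both 205 and 158 bases before its start, and it was the only one of the 13 windows with this D-box, which 0.819% of all 32851 windows in the table hold. The E-box CACGTG was found in 4 of the 13 windows, of Cry1, of the first start of Per1 and of both starts of Tef, and in 6.02% of all windows. In Cry1 it begins 60 bases before the start, with the variant CACGTT, read on the other strand as AACGTG, at 79 bases. That variant was also in the window of Nr1d1 and in 3.85% of all windows. Hlf holds TGACGTCA, as do 1.55% of windows. The D-box TTACGTAA (0.113% of all windows) and the element TAGGTCA (2.23%) were in none of the 13. The window of Dbp holds none of the 6 motifs. Only the 250 bases before the start were searched, so this does not tell whether Dbp has such motifs elsewhere. A match describes the letters only, and none was tied to a level on the arrays.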

How the data were processed

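RNA of 4 samples, 1 for each of days 1, 4, 5 and 7, was hybridised to 1 Affymetrix mouse array each. The table the authors deposited holds 1 linear intensity for each probe set and sample; GCOS 1.4 and MAS5 are named in the submitters' processing notes. Any scaling target was not given in the sources used here. Detection calls were not used. Of 45101 probe sets, 64 controls were left out. Only the 34945 others with a single symbol in the array's annotation were named; 932 carried several symbols and 9160 carried none. Between 46.6% and 52.6% of probe sets lay above the floor on each array, and the median signal was 38.3, 34.3, 32.3 and 26.2 on days 1, 4, 5 and 7. The number of arrays limits the precision.

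Signals were floored at 32.4, and log2 differences were taken between days 4 and 1, 5 and 4, 7 and 5, 7 and 4, and 7 and 1, with a gene measured where it was above the floor on 1 of the 2 arrays. A fold against an array under the floor is given as at least N-fold. Other settings tried were floors at percentiles 25 and 60 (8.43 and 68.9), 16 added with no floor, quantile normalization, scaling to the same median over probe sets above the floor on every array, the mean over probe sets, and leaving out probe sets that match several transcripts. Named were all 10 clock genes and all of the core loop list, up to 4 genes of each other list with the largest differences, and the 5 nearest to Dbp. Wee1 and Csnk1d, outside that rule, were named after their values were seen. The genes and lists were chosen with earlier results of these data known. The counting was tested on simulated data. Python 3.11.15 with numpy 2.4.6, pandas 2.3.3 and matplotlib 3.10.9 was used.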

Additional observations from a re-analysis of the deposited data

How the results depend on the processing

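No paired analysis was possible because each day has 1 array, and no array could be left out of a group for the same reason. Counts of clock genes past 2-fold moved as follows, with 1 array a group and no test. On day 4 over day 1 the 1 higher gene, Dbp, became 0 with the mean over probe sets and 0 without probe sets that match several transcripts, since its second probe set differs by 0.41. On day 7 over day 5 the 0 lower genes became 2 (Hlf and Per2) with the floor at the 25th percentile. On day 7 over day 4 the 2 lower genes became 3 (Hlf beside them) with the floor at the 25th percentile, were Hlf and Per2 with 16 added and no floor, and became 1 (Per2) after quantile normalization and 1 (Per2) after scaling to the same median, 0 with the floor at the 60th percentile and 0 with the mean over probe sets. On day 7 over day 1 the 5 lower genes became 4 after quantile normalization (without Hlf, at -0.92), 2 (Per1 and Cry1) with the floor at the 60th percentile and 2 (Per1 and Cry1) with the mean over probe sets. The number with day 5 below both neighbours became 4 after quantile normalization, against 2, with no all-gene share for that scaling. It became 3 with the floor at the 25th percentile, with Nr1d1 beside Dbp and Nr1d2. After scaling to the same median, Tef also had day 5 below both. Its day 5 over day 4 was then -0.51 and its day 7 over day 5 was 0.14. The count with day 5 under both neighbours by 2-fold was 1, Dbp, under all 7 alternatives, with day 5 over day 4 between -2.23 and -1.78 and day 7 over day 5 between 1.47 and 1.89. For day 7 over day 5, genes above the floor on both arrays had a median of -0.11 on the log2 scale with no rescaling, of 0.03 with quantile normalization and of 0.06 with equal medians. For day 7 over day 1 these were 0.03, 0.14 and 0.16. Relative to its median, Per1 was at -0.12, 0.04 and -0.11 for day 7 over day 5. The low signals of Hlf, Per2 and Per3 limit their differences most: with the floor at the 25th percentile Hlf was at -3.09 and Per2 at -2.86 for day 7 over day 1, against -1.15 and -2.08, while Per3 stayed at -1.82. With the floor at the 60th percentile Hlf was at -0.06, Per2 at -0.99 and Per3 at -0.84.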
